A study of Mus musculus with 3 samples.

Results

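Cells respond to a fall in oxygen through the hypoxia-inducible factors (HIFs), which are dimers of an alpha subunit and a beta subunit. While oxygen is plentiful, prolyl hydroxylases of the Egln family modify the alpha subunit, the Vhl protein binds the modified form, and the attached ubiquitin ligase sends it to the proteasome. The asparaginyl hydroxylase Hif1an blocks the binding of coactivators, so that both the amount and the activity of the alpha subunit follow oxygen mainly at the level of the protein. Epas1 is the alpha subunit best known from endothelium, where it takes part in the growth and upkeep of vessels.

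The 10 genes of this system described here are the alpha subunits Epas1, Hif1a and Hif3a, the beta subunits Arnt and Arnt2, the prolyl hydroxylases Egln1, Egln2 and Egln3, the asparaginyl hydroxylase Hif1an and the ubiquitin ligase subunit Vhl. They were found by symbol among the probe sets that name a single gene, and each had 1 such probe set, so that 10 of 19938 genes measured in this way are covered. The cells were the endothelium of the glomerulus, the filtering capillary knot of the kidney, and were measured on 3 arrays called replicates 1, 3 and 5, each from 1 adult kidney that was not pooled with others. The mice carried the Tg(TIE2GFP)287Sato transgene, which places green fluorescent protein under the Tek (Tie2) promoter, Tek being a receptor of endothelium. They were adults of a mixed background, primarily CD-1, with no age in months and no sex given. Kidneys were freed of medulla, treated with Collagenase A, sieved for glomeruli and treated with trypsin, and green cells were taken by fluorescence activated sorting, so a cell that does not use the Tek promoter should not be in the gate. All arrays form 1 group with no treatment, and no sample at another oxygen level was analysed here. The design therefore asks which of these genes can be measured in the cells and how far the arrays differ.

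All values are log2 signals of a probe set as deposited, and means are given ± SD over the 3 arrays (n = 3). Each mean was set against 2 levels. The first is 100, which is 6.64 on the log2 scale and is the number the study used as its filter on raw values, although the deposited scale need not be that raw scale and a gene below it need not be silent. The other is the 95th percentile of 1035 probe sets of olfactory receptor genes, 4.85 on the log2 scale. It stands near the upper end of the background of these arrays, although 1 such probe set reached 9.12. The median of these probe sets was 3.33, so a gene called below this level can still lie within the background. The test was limma's moderated statistic with Benjamini-Hochberg adjustment over 21789 probe sets. Over all of these, 15.8% were called above the level of 100, 72.5% below it, 44.4% above the olfactory receptor level and 36.2% below that level. Probe sets differ in brightness for the same amount of RNA, so each gene is compared with the levels and with itself between arrays, and no order of abundance among the genes is read from the values. A lower signal in sorted cells cannot tell fewer cells with the transcript from less RNA per cell.

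The labelled cell type was borne out by its markers. All 13 endothelial markers were called above the level of 100, among them the junction molecules Pecam1 at 10.26 ± 0.21 and Cdh5 at 10.75 ± 0.32. Tek is also among the 13, and since its promoter drove the sort, its call is no independent check. Ehd3, another of them, was reported by the study itself as raised in glomerular endothelium, beside earlier work it cites. Of 38 measured markers of podocytes, mesangium and smooth muscle, proximal tubule, distal nephron and leukocytes, 37 were called below the level of 100. The exception was the water channel gene Aqp1 at 8.25 ± 0.52, which some kidney endothelium also expresses. Against the olfactory receptor level 9 of the 38 were called above, 14 neither and 15 below, and with the 99th percentile of olfactory receptors as the level 1 was above and 27 below. Those called above included Nphs1 of the podocyte slit diaphragm at 5.47 (its other probe set, at 4.80, was called neither) and the phosphate transporter gene Slc34a1 of the proximal tubule at 5.37, each with the same value on all arrays. The podocyte gene Synpo at 5.07 ± 0.03 and the distal nephron gene Umod at 5.15 were called neither. The leukocyte gene Ptprc was also called neither, at 4.77 ± 0.18, and Cd68 was above that level at 5.29 ± 0.03. The mesangial genes Pdgfrb at 4.22 ± 0.25 and Itga8 at 5.26 ± 0.72 were below and neither, the endocytic receptor gene Lrp2 was below at 4.33 and so was the transporter gene Slc12a1 at 3.56. Medians of these markers were 4.61, 4.61 and 4.59 on replicates 1, 3 and 5. Their part in the levels described next was not tested.

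Among the 10 genes, 3 (Epas1, Arnt and Egln1) lay significantly over the level of 100, 5 lay under it and 2 were called neither, beside the 15.8% above and 72.5% below among all probe sets tested. Against the olfactory receptor level 7 were called above, 1 below and 2 neither, beside 44.4% and 36.2%. With the 99th percentile as the level 3 were called below, beside 11504 of all 21789 probe sets tested. The median of the 10 genes was 6.01, and the median over all probe sets tested was 5.04. The list is short and the counts are given as a description.

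**Figure D1:**
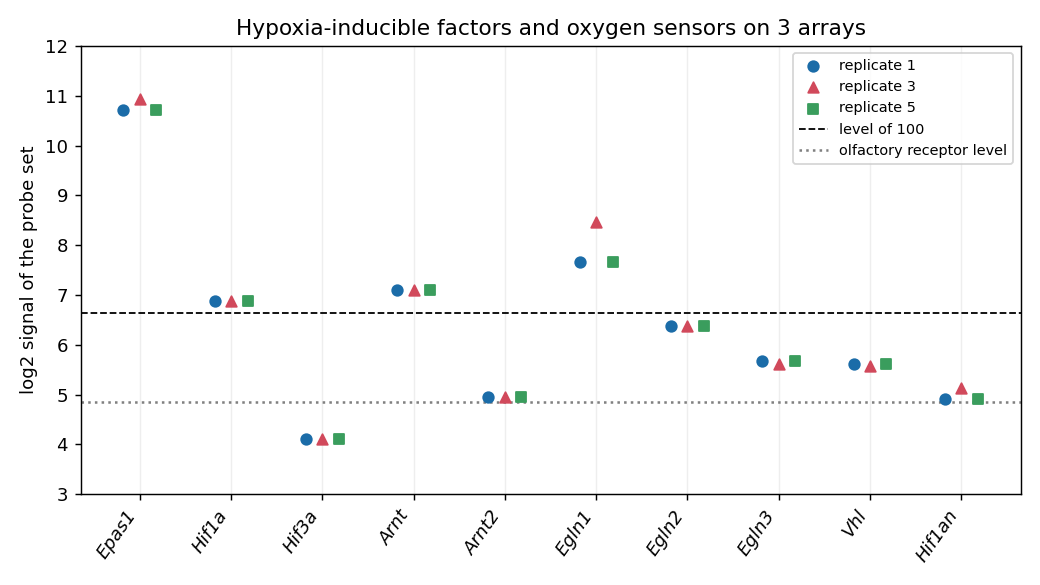
Log2 signal (y axis) of the single probe set of each of the 10 genes (x axis) on replicates 1, 3 and 5 (points), with the level of 100 (dashed line) and the olfactory receptor level (dotted line). Epas1 lies far above both lines on every array, Hif3a lies below both, and only Egln1 shows arrays clearly apart, with replicate 3 at 8.46 and the others at 7.67.

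The alpha subunits lay in 3 different places relative to these levels. Epas1 had 10.71, 10.93 and 10.71 on replicates 1, 3 and 5. All arrays were far above the level of 100, with a difference of 4.14 ± 0.13 (log2, SE, adjusted p = 6.88e-05), and the geometric mean of the signal was 1760. Hif1a, the alpha subunit that most cell types carry, had 6.87 on every array, close to the level of 100, and was called neither (difference 0.23, adjusted p = 0.139). It was above the olfactory receptor level by 2.01 (adjusted p = 0.000363). Hif3a, which has forms that act as inhibitors of the other alpha subunits, had 4.10 on every array. It was below the olfactory receptor level by 0.76 (adjusted p = 0.00486), so no signal above the background of the arrays was measured for it.

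Both beta subunits gave the same value on every array. Arnt, the general partner of the alpha subunits and of the dioxin receptor, had 7.10 and was called above the level of 100 (difference 0.46, adjusted p = 0.0209), a call close to the level and less sure than its p, since the test called too many simulated probe sets at the level. Arnt2, a relative best known from brain and kidney development, had 4.95. It was below the level of 100 (adjusted p = 0.000254) and could not be told from the olfactory receptor level, from which it differed by 0.10 (adjusted p = 0.485). Against the 99th percentile it was lower (difference -0.59, adjusted p = 0.01, against 6.33e-30 to 0.553 under the other alternatives).

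The prolyl hydroxylases were spread over the range between the levels and above it. Egln1, often described as the main oxygen sensor of the Egln family, had 7.67, 8.46 and 7.67 on replicates 1, 3 and 5. Every array was above the level of 100, and the mean of 7.93 ± 0.46 exceeded it by 1.29 ± 0.22 (log2, SE, adjusted p = 0.00527). Without replicate 3 the difference was 1.03 (adjusted p = 0.00166), and with limma's default variance prior the adjusted p was 0.0407, within a range from 0.00166 to 0.0407 over the alternatives. Egln2, a hydroxylase that does not depend on HIF for its own expression in most cells, had 6.37 on every array. It was called neither against the level of 100 (difference -0.28, adjusted p = 0.0869) and above the olfactory receptor level by 1.51 (adjusted p = 0.000661). Egln3, which is strongly induced by HIF in many cell types, had 5.68, 5.62 and 5.68. It lay between the levels on every array, below 100 by 0.98 (difference -0.98, adjusted p = 0.0016) and above the olfactory receptor level by 0.81 (adjusted p = 0.0041). With the 99th percentile of olfactory receptors as the level, 5.54, the latter call was lost (adjusted p = 0.396, against 0.00068 to 0.012 under the other alternatives).

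Egln1 and Egln3 are both textbook HIF targets, and their proximal promoters are shown for context. They stood on opposite sides of the level of 100, but on different probe sets, and a link between those calls and the promoter matches was not tested. The sequences are the 250 bases before the RefSeq start on the mouse assembly GRCm38.p6, 5′ to 3′ on the strand of the gene, both of which lie on the minus strand. Capitals mark the core of the hypoxia response element, ACGTG or GCGTG, searched on both strands.
Egln1, chr8:124949255-124949504: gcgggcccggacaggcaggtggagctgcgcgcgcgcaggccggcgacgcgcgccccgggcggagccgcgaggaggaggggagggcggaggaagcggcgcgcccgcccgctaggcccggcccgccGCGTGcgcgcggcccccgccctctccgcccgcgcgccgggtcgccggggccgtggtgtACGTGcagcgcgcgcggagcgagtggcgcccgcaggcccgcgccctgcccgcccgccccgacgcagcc
Egln3, chr12:54203875-54204124: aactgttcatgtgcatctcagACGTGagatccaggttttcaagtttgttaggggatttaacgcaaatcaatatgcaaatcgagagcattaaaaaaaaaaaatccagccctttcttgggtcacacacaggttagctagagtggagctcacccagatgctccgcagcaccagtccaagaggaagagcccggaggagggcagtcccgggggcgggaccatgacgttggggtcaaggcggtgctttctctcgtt
The Egln1 window holds a match that begins 126 bases before the start and another at 68 bases, and the Egln3 window holds 1 match at 229 bases. Among the 9 of the 10 genes with a RefSeq window in the table used here (Epas1 has none there), 6 held either core, namely Hif1a, Hif3a, Arnt, Egln1, Egln2 and Egln3. Of 15614 genes that have both a window and a probe set naming 1 gene, 49.9% held either core. The letters ACGTG are also part of the E-box CACGTG, so a match is only a match of letters.

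Vhl and Hif1an were both called below the level of 100. Vhl, the subunit that recognises hydroxylated proline, had 5.61, 5.57 and 5.61, below the level of 100 on every array (difference -1.05, adjusted p = 0.00127). It was above the olfactory receptor level by 0.74 (adjusted p = 0.00523), a call lost with their 99th percentile as the level (adjusted p = 0.683, against 0.000453 to 0.0143 under the other alternatives). Hif1an had 4.90, 5.13 and 4.90. It was below the level of 100 (adjusted p = 0.000355) and differed from the olfactory receptor level by 0.12 (adjusted p = 0.428), so it could not be told from that level. Against the 99th percentile it was lower (difference -0.57, adjusted p = 0.0154, against 0.25 to 0.759 under the other alternatives).

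The values of Hif1a, Hif3a, Arnt, Arnt2 and Egln2 were identical on all arrays, as were those of 54.1% of all probe sets tested, so their SD of 0 says nothing about precision and their standard error rests on the variance prior alone. With limma's default prior, which takes identical values as free of error, Hif1a was called above 100 (adjusted p = 6.67e-30, against 0.122 to 0.193 under the other alternatives) and Egln2 below it (adjusted p = 7.33e-32, against 0.0746 to 0.13).

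The spread between arrays in these genes is given beside that of all probe sets. None of the 10 had a range between the highest and the lowest array of over 1 log2 unit, beside 5.73% of all probe sets tested. For 10 genes that is close to the share of all probe sets. Only Epas1 had 3 different values, beside 20.2% of all probe sets, and there replicates 1 and 5 were both 10.71 after rounding. In Egln1, Egln3, Vhl and Hif1an replicates 1 and 5 were equal and replicate 3 alone differed, a pattern that 11.1% of all probe sets had. Replicate 3 was highest for Epas1, Egln1 and Hif1an, beside 14.2% of all probe sets, and lowest for Egln3 and Vhl, beside 12.6%. The widest step was that of Egln1, with replicate 3 higher than the mean of the others by 0.79, and the next were Hif1an with 0.23 and Epas1 with 0.22.

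**Figure D2:**
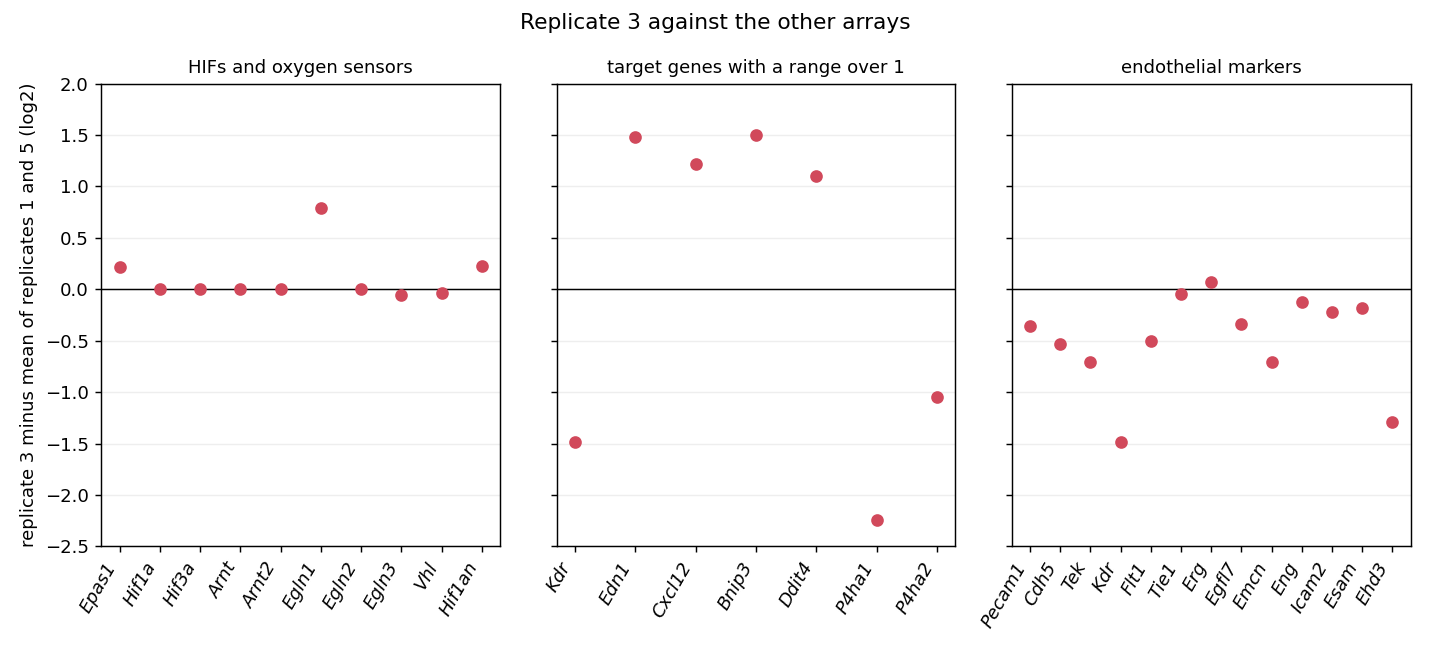
Log2 signal of replicate 3 minus the mean of replicates 1 and 5 (y axis) for the 10 genes (left), for HIF target genes with a range over 1 log2 unit (middle, chosen by that range) and for the 13 endothelial markers (right). Egln1 stands at 0.79, the target genes lie on both sides of 0, 4 above and 3 below, and 9 of the 13 endothelial markers had their lowest value on replicate 3.

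Replicate 3 also differed from the others in endothelial markers. Of the 13, 9 were lowest and 0 highest there, beside 12.6% and 14.2% of all probe sets tested. Their median was 10.32, 9.51 and 10.43 on replicates 1, 3 and 5. These medians fall on different genes, Pecam1 on replicates 1 and 5 and Ehd3 on replicate 3, so their difference is not the step within a gene. Replicate 3 minus the mean of the others was -0.36 for Pecam1 and ran from -1.48 for Kdr to 0.07 for Erg. The medians of the other cell type markers were alike on the 3 arrays, as given above. Of those 38 markers, however, 20 had identical values on all arrays and 9 were called above the olfactory receptor level. Such medians could hardly differ between arrays, so the share of other cells on each array cannot be read from them. Whether the difference in endothelial markers has a part in the higher Egln1 value of replicate 3 was not tested. With 1 array per kidney, a difference between arrays cannot be told apart from one between kidneys, dissections or amplifications.

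HIF target genes were described from 3 lists drawn from textbook knowledge, of glucose use, of vessels, and of stress, iron and matrix. Most of these genes also have other regulators, so their levels are not a readout of HIF activity. Of 52 target genes measured, 27 lay significantly under the level of 100, 17 over it and 8 were called neither. Among all probe sets tested 72.5% lay under it and 15.8% over it. Against the olfactory receptor level 29 were above, 13 below and 10 neither, beside 44.4% above and 36.2% below among all probe sets. The median of the 52 was 5.98. Flt1, Kdr, Tek and Cdh5, all called above 100, are counted both here and among the endothelial markers.

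Genes of glucose use fell on both sides of the level of 100. The 14 measured had a median of 5.84, and 6 were above the level of 100 and 8 below. The shares over all probe sets tested were 15.8% above that level and 72.5% below. The glycolytic enzyme genes Pgk1 at 8.26 on every array, Aldoa at 8.58 ± 0.01 and Ldha at 7.88 ± 0.03 were above it, as were Hk1, Pkm and Tpi1, although the other probe set of Hk1 had a mean of 6.31 and was called neither. All 3 probe sets of Pgk1 were called above, with 8.24 as the lowest mean. The glucose transporter gene Slc2a1 was between the levels at 5.33, and so was Pfkfb3, an activator of glycolysis known from sprouting endothelium, at 6.23. Below the olfactory receptor level were Hk2 at 3.87, the inducible hexokinase, and Pdk1 at 4.36, a kinase that closes the entry of pyruvate into mitochondria. Pfkfb4 had 3.83 ± 0.08 and was below that level too. None of these 14 genes had a range over 1 log2 unit, beside 5.73% of all probe sets tested.

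Vascular targets included the VEGF receptors that mark these cells. The 18 measured had a median of 6.20, and 7 were above the level of 100, 8 below and 3 neither. Again 15.8% of all probe sets tested were above that level and 72.5% below. Flt1 at 10.54 ± 0.29, Kdr at 10.51 ± 0.87 and Tek at 10.65 ± 0.43 were above it, and all are endothelial markers whatever the oxygen level. Vegfa, the growth factor that is the classic HIF target, had 7.55 on every array (adjusted p = 0.00205). In contrast Adm, the vasodilator adrenomedullin, had 3.78 on every array and was below the olfactory receptor level (adjusted p = 0.00169). Angpt2 at 4.74 ± 0.09, the antagonist of Tek, and Angptl4 at 4.60, an inhibitor of lipoprotein lipase, could not be told from that level. Edn1, which encodes endothelin 1, had 6.87, 8.45 and 7.08 and was called neither against 100 (adjusted p = 0.0988).

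Stress, iron and matrix targets held 4 of the 7 target genes with a range over 1 log2 unit. The 20 measured had a median of 5.68, and 4 were above the level of 100, 11 below and 5 neither. Here too 15.8% of all probe sets tested were above that level and 72.5% below. The mitophagy receptor gene Bnip3l at 10.35 ± 0.10, the mitochondrial gene Higd1a at 9.38 ± 0.04 and Ndrg1 at 7.48 ± 0.25 were above, as was Ero1a, an oxidase of protein folding. Ankrd37 at 4.93, a widely used hypoxia marker transcript, could not be told from the olfactory receptor level, and Mxi1, an antagonist of Myc, was between the levels at 5.27 ± 0.05. The histone demethylase gene Kdm3a had 6.75 on every array and was called neither against 100 (adjusted p = 0.43).

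**Figure D3:**
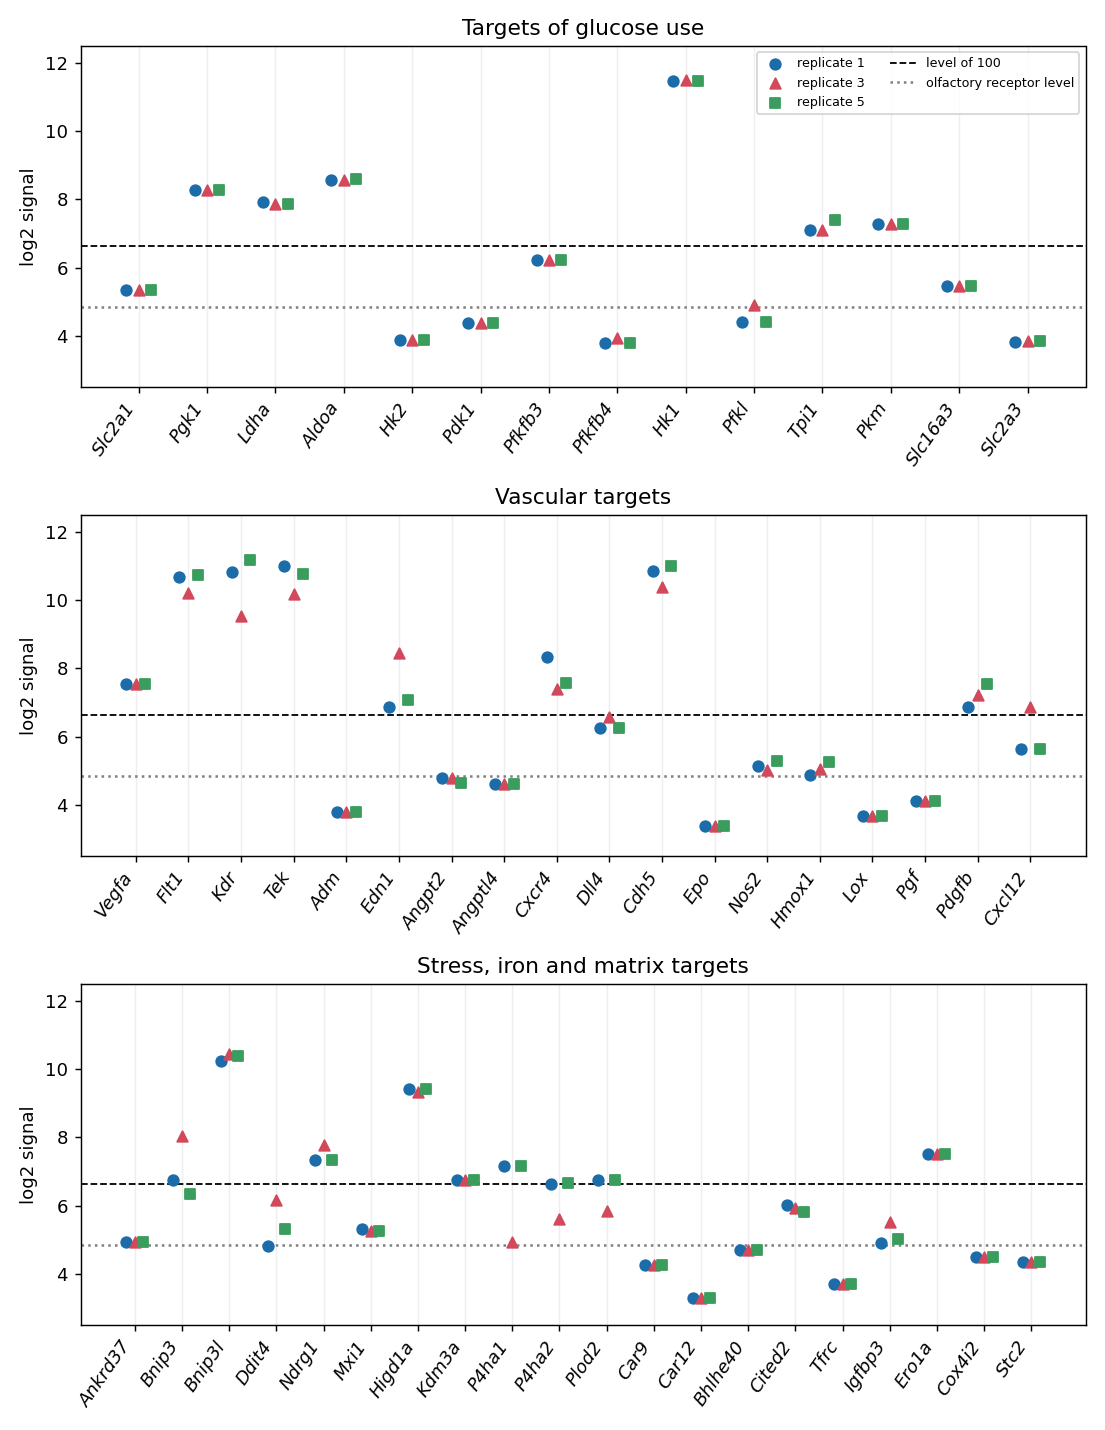
Log2 signal (y axis) of the 52 measured HIF target genes (x axis) on replicates 1, 3 and 5 (points), in panels for glucose use, vessels, and stress, iron and matrix, with the level of 100 (dashed line) and the olfactory receptor level (dotted line). Pgk1, Ldha and Aldoa lie on nearly the same value on all arrays, whereas P4ha1 has 4.93 on replicate 3 and 7.17 on the others.

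Of the 52 target genes, 7 had a range over 1 log2 unit, beside 5.73% of all probe sets tested. Replicate 3 was the highest or the lowest array in each. This is not particular to the targets, since over all probe sets such ranges also became fewest when replicate 3 was left out, as given below. Replicate 3 was highest in 4 of the 7. Bnip3, a relative of Bnip3l, had 6.74, 8.04 and 6.35, and the growth inhibitor gene Ddit4 had 4.82, 6.17 and 5.33. Edn1 is given above, and the chemokine gene Cxcl12 had 5.64, 6.86 and 5.64. Replicate 3 was lowest in the other 3, which were Kdr with 10.83, 9.53 and 11.18 and the collagen prolyl hydroxylase genes P4ha1 with 7.17, 4.93 and 7.17 and P4ha2 with 6.65, 5.61 and 6.67. These 7 genes were chosen by their range on these same arrays, and 1 of them, Kdr, is also among the endothelial markers. Whether they have a link to the higher Egln1 value of replicate 3 was not tested. The second probe set of Bnip3 had a mean of 6.48 and was called neither against both levels.

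Proteins that act with the 10 genes were described from 4 further lists. The counts of each list stand beside 15.8% above and 72.5% below the level of 100 among all probe sets tested. Against the olfactory receptor level these shares were 44.4% above and 36.2% below. Of 14 genes for degradation and stability of HIF, 7 were above the level of 100, 4 below and 3 neither, and 12 were above the olfactory receptor level, with a median of 7.11. The partners of Vhl in the ubiquitin ligase were Elob at 8.54, Eloc at 9.52 ± 0.06 and Rbx1 at 9.62 ± 0.12, all above 100, and the scaffold gene Cul2 at 6.33, called neither (adjusted p = 0.0644). Hsp90aa1, a chaperone gene that is induced by heat shock, had 11.46, 10.51 and 9.98.

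All 9 genes on the list of coactivators, which also holds the inhibitor Cited2, were above the olfactory receptor level, beside 44.4% of all probe sets tested. Of the 9, 4 were above 100, 3 below and 2 neither, beside 15.8% above and 72.5% below. The acetyltransferase genes Ep300 at 8.20 ± 0.11 and Crebbp at 9.15, whose products Hif1an keeps from the alpha subunit, were above 100. Cited2, an inhibitor that competes for the same coactivators, is also on the list of stress targets and was between the levels at 5.92 ± 0.11, and so was Cited4 at 5.84. The kinase gene Cdk8 had 9.12, 7.60 and 7.81.

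Of 10 other genes of the bHLH-PAS family, to which the alpha and beta subunits belong, 3 were above the level of 100 and 7 below. These counts stand beside 15.8% above and 72.5% below among all probe sets tested. The median of the 10 was 4.45. Ahr, the dioxin receptor that also pairs with Arnt, was above at 7.40 ± 0.03, as were the clock genes Clock and Bmal1, whereas its repressor gene Ahrr at 4.06 and the neural factor Sim2 at 4.32 were below the olfactory receptor level. Sim1 at 4.57 could not be told from it.

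Other dioxygenases that use oxygen as a substrate, such as the collagen hydroxylases and the histone and DNA demethylases, were described last. The 35 measured had a median of 6.32. Of them, 5 were above the level of 100, 15 below and 15 neither, beside 15.8% above and 72.5% below among all probe sets tested. Above the olfactory receptor level were 28, beside 44.4%. With the 99th percentile of olfactory receptors 18 were above background, and with limma's default prior 9 were above 100. Over all 21789 probe sets tested these numbers were 6627 and 3474. P4ha3 at 3.94 was below the olfactory receptor level, and P4htm, a membrane prolyl hydroxylase, had 4.54, 4.49 and 5.73. Tet1 had 6.70, 5.67 and 7.49, but its other 2 probe sets had means of 5.96 and 4.90 and were called below 100. Ogfod1, a hydroxylase of a ribosomal protein, had 6.79, 5.40 and 6.52. Of the 35, 10 were lowest and 4 highest on replicate 3, beside 12.6% and 14.2% of all probe sets tested. P4ha1, P4ha2, Plod2 and Kdm3a are counted both here and among the targets.

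**Figure D4:**
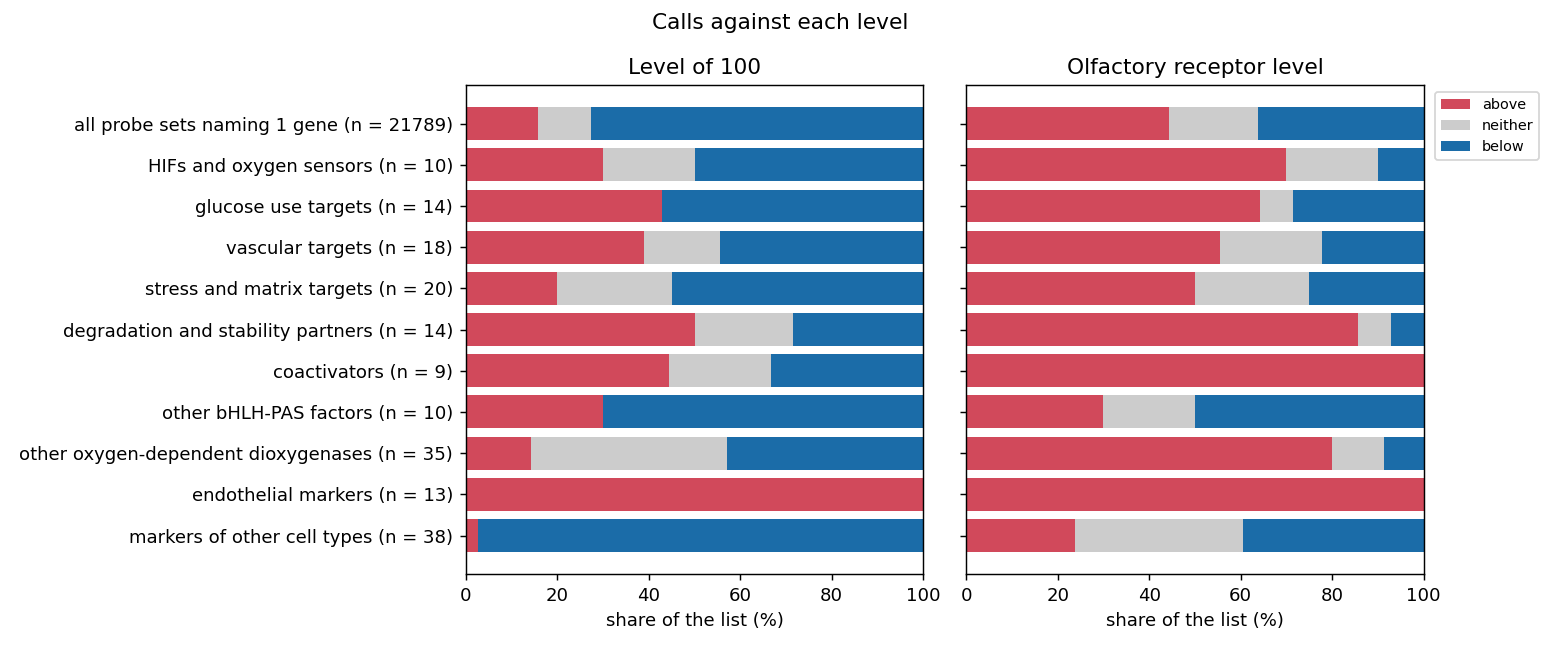
Share of measured genes (x axis, percent) called above, neither or below the level of 100 (left) and the olfactory receptor level (right) for each list (bars, n in the labels), beside all probe sets tested. The 10 HIF and oxygen sensor genes have 3 above and 5 below on the left, and 7 above and 1 below on the right.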

How the data were processed

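RNA of sorted glomerular endothelial cells was amplified in 1 round and measured on Affymetrix Mouse Gene ST arrays, 1 per kidney. The authors deposited log2 signals per probe set. Affymetrix Expression Console, without a version, stands in the submitters' processing notes, and the study names RMA for its own analysis. The set of arrays that was normalized jointly is not stated in those sources. Summary of probes by median polish, as in RMA, can return the same value for each of a few arrays, so ties are not repeat measurements. The number of arrays limits the precision, and p-values cover nothing beyond the spread of these 3 arrays.

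Of 35557 probe sets, 21789 named 1 gene in the platform annotation and were tested, 1621 named several and 12147 were not named there. All 10 genes matched RefSeq (GRCm38.p6) by Entrez identifier. Probe set coordinates were not used here. In lists, the probe set with the highest mean stood for a gene. Listed genes with no probe set naming only them, among them Eno1, Gapdh, Rack1, Hsp90ab1 and Npas2, were not analysed here.

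An intercept was fitted per probe set with limma 3.58.1 (R 4.3.3), and the mean was tested against each level, two-sided, with a threshold of 0.05 on adjusted p. The variance prior (SD 0.288, degrees of freedom 2.03) came from the 4406 probe sets with 3 different values, with ties read at a tolerance of 1e-06. The olfactory receptor level was treated as fixed. On simulated data with such ties the test recovered most shifts of 1 log2 unit or more, but it called probe sets placed at the level more often than the threshold allows, and more so with the default prior, so calls close to a level are less sure than their adjusted p. Alternatives were limma's default prior, adjustment over all probe sets, quantile normalization, median centring, each array left out, the median probe set of a gene and the 99th percentile of olfactory receptors. Named genes are the 10, the first 8 measured of each target list and the first 4 of each partner list, up to 4 per list with a range over 1 log2 unit, the first 2 of each marker list and any marker of another cell type above 100; genes named outside this rule (Hk1, Pkm, Tpi1, Ero1a, Plod2, Siah1b, Clock and Bmal1) were added after their values were seen. The 10 genes and the lists were chosen with earlier results of these data known. Promoter windows came from RefSeq tables.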

Additional observations from a re-analysis of the deposited data

How the results depend on the processing

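No paired analysis was possible because all arrays form 1 group. For the 10 genes, the target genes, the pooled partner lists and the pooled markers of other cell types, counts of calls stayed within 1.5 times under every alternative except the 99th percentile of olfactory receptors, a level of 5.54 on the log2 scale in place of 4.85. There the number called below that level was 3 in place of 1 for the 10 genes, 20 in place of 13 for target genes, 14 in place of 9 for the partner lists and 27 in place of 15 for markers of other cell types, of which 1 in place of 9 was called above. The shift was general, since over all 21789 probe sets tested 11504 in place of 7889 were called below and 6627 in place of 9680 above. The calls of Egln3 and Vhl above the olfactory receptor level were lost there (adjusted p = 0.396 and 0.683). Arnt2 and Hif1an turned from slightly above that level to below it, at -0.59 (adjusted p = 0.01) and -0.57 (adjusted p = 0.0154). With limma's default prior 4 of the 10 genes were above 100 and 6 below, 8 were above the olfactory receptor level, Arnt2 being added (adjusted p = 6.33e-30), and 9 in place of 5 of the dioxygenases were above 100. With the 99th percentile 18 in place of 28 dioxygenases were above the olfactory receptor level and 5 in place of 3 below it. The single degradation gene below the olfactory receptor level, Siah1b, was one of 0 to 2 so called under the alternatives. No call of the 10 genes against either level changed when an array was left out, with 3 above 100 and 7 above background each time. Over all probe sets tested, a range over 1 log2 unit was found in 1248, and in 474 without replicate 3, 810 without replicate 5 and 844 without replicate 1, where a range is taken over 2 arrays. Adjustment over all 35557 probe sets raised the number called below 100 from 15803 to 25507, a larger number of probe sets being tested.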

Other observations

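The core of the hypoxia response element was looked for in the promoters of the target genes as well. Of 41 target genes with a RefSeq window of 250 bases before the start, 36 (87.8%) held ACGTG or GCGTG on either strand, against 49.9% of the 15614 genes with a window and a probe set naming 1 gene. ACGTG alone was in 19 of the 41 (46.3%, against 20.9%). Many of these genes are on the list because such elements are known in them, and the base composition of the windows was not matched, so the shares are a description and no test was made.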
